A study of Saccharomyces cerevisiae with 35 samples.

Results

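The transcripts described here are noncoding RNAs of budding yeast listed in the count files under ids made of ST and a number. The study had extended its annotation with published sets of noncoding RNA, among them cryptic unstable transcripts (CUTs) and stable unannotated transcripts (SUTs), and the ST ids are described as cryptic and stable transcripts. The files do not say which ST id is a CUT and which is a SUT, so none was assigned to either class. Of the 12131 features of the files 1772 were ST transcripts, and those with at least 1 normalized CPM (counts scaled to library size) in at least 3 libraries of a batch were kept. This left 809 ST transcripts, of which 490 passed in both batches, 307 in the first batch only and 12 in the second only. Of the 809, 85 lay on chromosome XV and 101 on chromosome XVI.

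RNA polymerase II starts transcription on both sides of many yeast promoters and opposite many genes. Short noncoding RNAs are commonly ended early by the Nrd1-Nab3-Sen1 complex, whose subunits Nrd1 and Nab3 bind short RNA motifs, and are then given a short tail by the TRAMP complex and degraded by the nuclear exosome with its subunit Rrp6. CUTs are seen mainly when this decay is impaired, whereas SUTs reach levels that can be measured in wild type cells. Transcription of such RNAs over a promoter or opposite a gene can lower, and at some loci raise, expression of that gene, and the RNA opposite the phosphate transporter gene *PHO84* is a well studied case.

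Poly(A) RNA of whole colonies grown for 4 days was sequenced with a strand-specific kit in 35 libraries of 9 groups, and each library came from several pooled colonies. All strains derived from F45, a haploid that forms fluffy colonies, and all carried *MAT***a**, a deletion of *ho* marked with hphMX6, *SPS2:EGFP:natMX4* and an unmapped serine auxotrophy. The first batch held 6 groups of 4 libraries. These were F45, strains with a second copy of chromosome XV or XVI (chromosome XV disome and chromosome XVI disome), a chromosome XVI disome in which kanMX4 replaced a single *DIG1* copy (hemizygous *DIG1/dig1*Δ strain), F45 with *DIG1* on a low copy plasmid (the *DIG1* overexpression strain) and F45 with plasmid pRS41K (the empty plasmid control). The study lists the *DIG1* plasmid as pAB340, so these 2 plasmid groups may differ by more than *DIG1*. The second batch held 3 libraries of F45 and 4 each of *cis3*Δ and *flo11*Δ strains, in which kanMX4 replaced the gene, and these 4 came from 2 strains with 2 libraries each. *DIG1*, on chromosome XVI, encodes an inhibitor of the transcription factor Ste12, *FLO11* encodes the main cell wall adhesin of biofilms and *CIS3* a cell wall mannoprotein. Each disome and plasmid group was 1 strain, so the 4 libraries measured the spread between colony pools of that strain, and the p-values below measure the spread between libraries, which may be technical. In such bulk RNA fewer cells of a kind and less RNA per cell cannot be told apart.

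The 5 sequences shown here, each on the transcript strand, belong to transcripts on which the results below turn. Positions are those of the R64 genome, and capitals mark Nrd1 motifs (GTAA or GTAG) and Nab3 motifs (TCTTG). The stretch given for ST2976 runs from the base after the *HPF1* reading frame into the start of that transcript and covers the whole gap between these divergent features.
ST2421, opposite *PHO84*, chrXIII:23944-24143 on the plus strand, the first 200 bases: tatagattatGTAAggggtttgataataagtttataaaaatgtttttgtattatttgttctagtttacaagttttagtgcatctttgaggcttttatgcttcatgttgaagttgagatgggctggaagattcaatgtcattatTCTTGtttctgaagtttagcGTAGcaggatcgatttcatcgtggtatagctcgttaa
ST1682, opposite *FLO11*, chrIX:389244-389443 on the plus strand, the first 200 bases: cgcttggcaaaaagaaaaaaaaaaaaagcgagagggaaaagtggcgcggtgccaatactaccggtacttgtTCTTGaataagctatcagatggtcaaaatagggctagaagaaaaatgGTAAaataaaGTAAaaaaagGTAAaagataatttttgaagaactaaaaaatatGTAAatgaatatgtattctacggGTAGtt
ST4587, opposite *MOT2*, chrV:294720-294919 on the minus strand, the first 200 bases: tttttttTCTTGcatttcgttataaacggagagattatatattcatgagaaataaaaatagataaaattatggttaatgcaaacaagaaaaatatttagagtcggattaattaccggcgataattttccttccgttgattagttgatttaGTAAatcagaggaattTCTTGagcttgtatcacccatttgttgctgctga
ST2976, divergent from *HPF1*, chrXV:31607-31805 on the plus strand, 199 bases: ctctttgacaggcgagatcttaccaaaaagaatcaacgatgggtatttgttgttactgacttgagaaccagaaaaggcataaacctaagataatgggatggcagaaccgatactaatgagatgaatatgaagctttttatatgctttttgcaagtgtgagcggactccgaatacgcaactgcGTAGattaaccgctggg
ST3473, at the 3′ end of *DIG1*, chrXVI:462374-462446 on the plus strand, all 73 bases: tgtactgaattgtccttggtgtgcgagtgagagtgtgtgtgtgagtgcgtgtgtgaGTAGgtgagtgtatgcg
The first 200 bases of ST1682 held 5 Nrd1 motifs and 1 Nab3 motif. Those of ST2421 held 2 and 1, and those of ST4587 held 1 and 2.

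The same motifs were searched at the starts of all ST transcripts and open reading frames (ORFs). Among the 746 kept ST transcripts of at least 200 bases, 81.2% had an Nrd1 motif in the first 200 bases, 35% a Nab3 motif and 29.1% both. On the opposite strand of the same windows the shares were 73.6%, 20.5% and 14.5%. Of 6361 nuclear ORFs of at least 200 bases 64.5% had an Nrd1 motif, 15.5% a Nab3 motif and 9.72% both in their first 200 bases. On the strand opposite these ORFs the shares were 78.2%, 40% and 31%, close to those of the ST transcripts, many of which lie opposite an ORF. The 811 ST transcripts that were not kept had shares close to those of the kept ones, at 84.5%, 34.8% and 29.7%. The shares are descriptions of letters, and no binding was measured. The motif bound by Ste12 (TGAAACA, either strand, in the 300 bases before the start) was present at 53 of the 797 ST transcripts tested in the first batch (6.65%) and at 456 of 6575 ORFs (6.94%).

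The kept ST transcripts differed from the others in how far they could be counted. Reads in bases that 2 features share on one strand appear to have been given to neither, because all 304 ST transcripts whose every base was shared had 0 counts in all 35 libraries. Of the kept transcripts 542 (67.0%) shared no base with another feature on their strand, compared with 290 (30.1%) of those not kept. A same-strand ORF ended within 300 bases upstream of 165 kept transcripts (20.4%) and of 81 others (8.41%). In contrast, the share lying opposite an ORF was 60.3% (488 transcripts) among the kept and 60.1% (579) among the others. Median lengths were 529 and 433 bases.

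Depth ranged from 6503076 to 37823857 counts per library in the first batch and from 11565108 to 25104790 in the second, and ST transcripts took 0.284% to 0.397% of the counts. Targeted genes followed the labels. Mean *DIG1* was 68.4 CPM in F45, 137 in the chromosome XVI disome, 60.2 in the hemizygous strain, 71.2 in the empty plasmid control and 304 in the overexpression strain. *CIS3* was at most 0.355 CPM in *cis3*Δ libraries and *FLO11* at most 6.36 CPM in *flo11*Δ libraries, against at least 737 and 18290 CPM in F45 of the second batch. The α-factor genes *MF(ALPHA)1* and *MF(ALPHA)2* were between 0.162 and 3.85 CPM in every library, but of the other α-cell genes *STE3* reached 36.9 CPM and *SAG1* was never below 41.8 CPM.

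In the second batch 2 libraries stood apart for the ST transcripts opposite highly expressed genes. In the 8 such pairs with an ORF of at least 1000 CPM and an overlap of at least 200 bases, the median level of the ST transcript per kb was 0.228%, 0.169% and 1.61% of the ORF level per kb in libraries 1 to 3 of F45. The corresponding shares were 0.170%, 0.186%, 0.176% and 0.641% in libraries 1 to 4 of *cis3*Δ and 0.339% to 0.446% in *flo11*Δ. The summed level of these 8 ST transcripts was 308 CPM in F45 library 3 and 61.6 CPM in *cis3*Δ library 4, compared with 20.6 to 25.7 CPM in the other 9 libraries. ST transcripts opposite ORFs under 100 CPM did not stand apart in the same way, with a sum of 1464 CPM in F45 library 3 and 1239 and 1346 CPM in F45 libraries 1 and 2. In the first batch no library departed from its group by as much, as the 4 F45 libraries had shares of 0.0903% to 0.145% over 6 pairs. What made these libraries differ was not tested, and results that rest on them are given below with and without them.

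**Figure D1:**
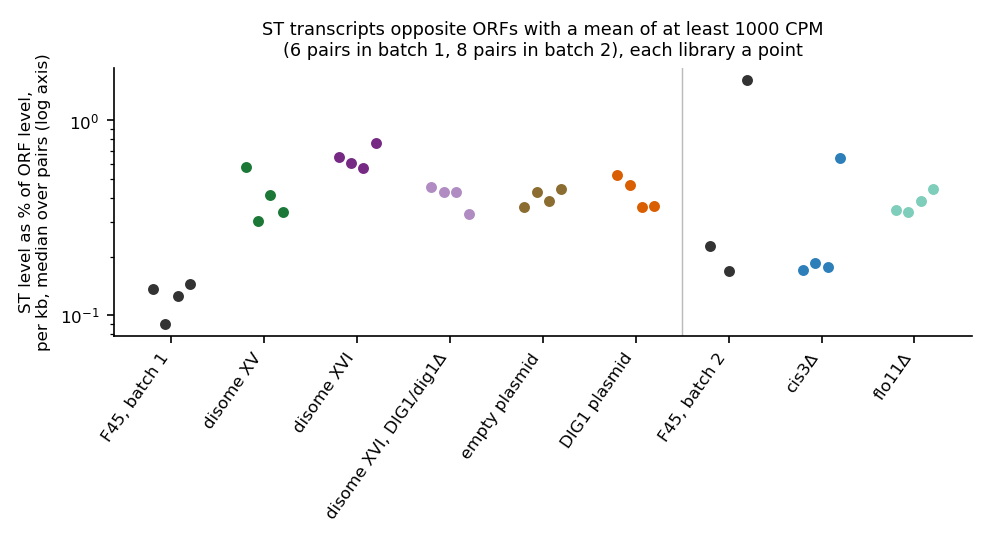
Level of ST transcripts opposite highly expressed ORFs as a percentage of the ORF level, both per kb, as the median over pairs in each library (points, log axis) for the 9 groups. F45 library 3 of the second batch (1.61%) and *cis3*Δ library 4 (0.641%) lie above the other libraries of their groups.

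Levels of ST transcripts were low throughout. In F45 of the first batch 555 of the 809 had a mean of at least 1 CPM and 82 a mean of at least 10 CPM, and across the 9 groups these numbers ranged from 428 to 604 and from 68 to 82. The highest in F45 was ST6969 on chromosome XV (1061113 to 1064393, minus strand), which runs opposite the ferric reductase gene *FRE5* for 2085 bases and ends 58 bases before *FIT3*, a gene for a cell wall mannoprotein of iron uptake. It had 158, 180, 161 and 168 CPM in F45 libraries 1 to 4. Next came ST0990 (mean 143 CPM), partly opposite *EPL1*, a gene for a subunit of the NuA4 histone acetyltransferase. ST0314 (97.7 CPM), ST2976 (71.9 CPM) and ST6895 (69.9 CPM) followed. Among these 5, per kb of unshared length, ST0314 (122 CPM per kb) and ST0990 (120) led ST6895 (97.0), ST6969 (50.8) and ST2976 (45.2). On chromosome XVI the highest were ST3628 (43.9 CPM), ST7126 (17.4 CPM) and ST7104 (16.1 CPM).

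The disomes allow the dosage of ST transcripts on the doubled chromosome to be set beside that of ORFs. Without adjustment for copy number, the 58 ST transcripts of chromosome XV with a mean of at least 1 CPM in F45 had a median ratio to F45 of 1.75 in the chromosome XV disome. The medians of the 4 libraries were 1.71, 1.74, 1.57 and 1.59 (mean 1.65 ± 0.0833, SD, n = 4), all below the 1.87 to 1.90 of the libraries over 534 ORFs of this chromosome. In the chromosome XVI disome the 59 ST transcripts of chromosome XVI had a median ratio of 1.72. The libraries had medians of 1.91, 1.79, 1.55 and 1.75 (1.75 ± 0.150, SD, n = 4), again below the 1.96 to 2.00 over 457 ORFs. The hemizygous strain, which carries the same doubled chromosome, had a median of 1.71 for these ST transcripts and 1.97 for the ORFs.

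The gap between ST transcripts and ORFs depended on how the ST transcripts were chosen. The 438 ST transcripts of chromosomes I to XIV, which were not doubled, had median ratios of 0.909 in the chromosome XV disome, 0.871 in the chromosome XVI disome, 0.851 in the hemizygous strain, 0.955 in the empty plasmid control and 0.892 in the overexpression strain, while the ORFs of these chromosomes stayed between 0.995 and 1.02. Choosing transcripts by their F45 level favours ratios below 1 by construction. In an alternative added after the data were seen, ST transcripts were chosen by their mean over all 24 libraries, and the medians became 1.93 on chromosome XV (n = 64), 1.95 on chromosome XVI (n = 65) and 0.925 to 0.990 on chromosomes I to XIV (n = 451). That mean includes the disome libraries themselves. Thus, on either choice most ST transcripts were above 1 on the doubled chromosome, with 48 of 58 on chromosome XV and 50 of 59 on chromosome XVI by the F45 level. Single transcripts were widely spread, with quartiles of 1.08 and 2.38 on chromosome XV (1.51 and 2.39 for ORFs) and 1.23 and 2.14 on chromosome XVI (1.55 and 2.36 for ORFs). Beyond the doubled dose, 16 of 84 tested ST transcripts of chromosome XV were higher and 18 lower in its disome, and on chromosome XVI 6 of 101 were higher and 17 lower. Among the ORFs of the same chromosomes 136 of 544 were higher and 190 lower on chromosome XV, and 119 of 475 were higher and 141 lower on chromosome XVI.

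**Figure D2:**
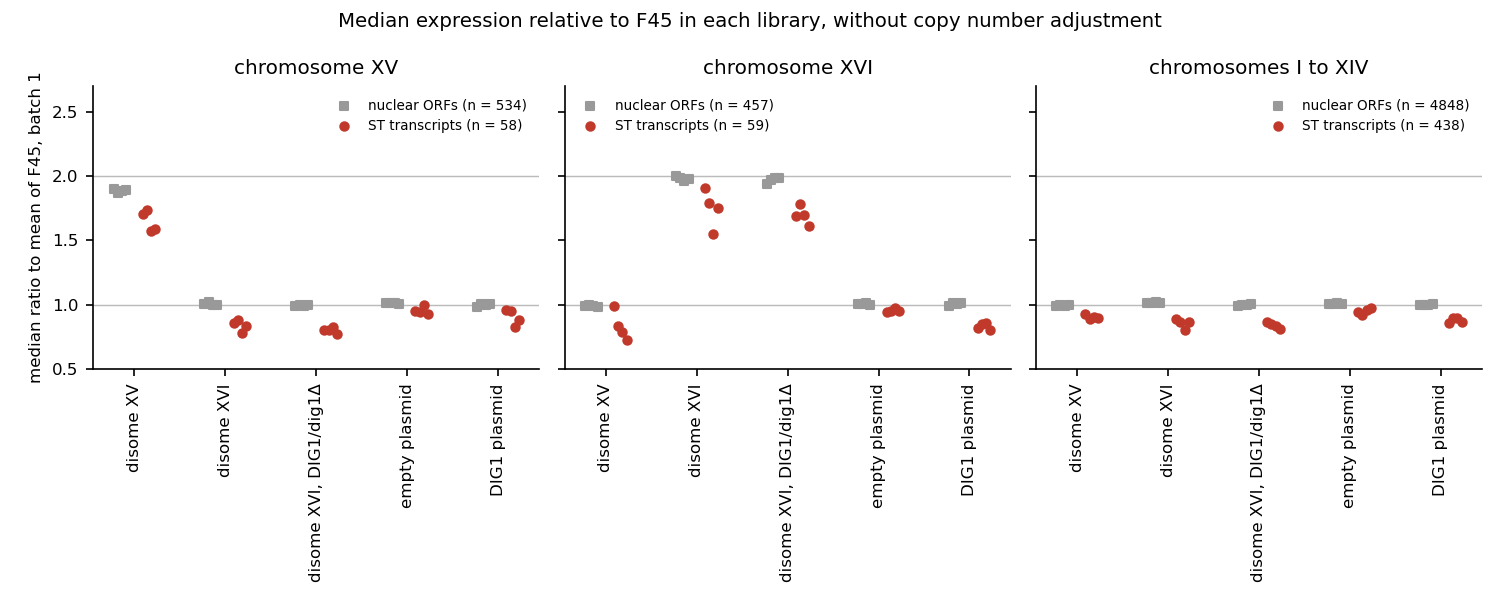
Median ratio to the F45 mean in each library of the first batch (points) for ST transcripts and nuclear ORFs of chromosome XV, chromosome XVI and chromosomes I to XIV, without copy number adjustment, with lines at 1 and 2. ST transcripts (1.57 to 1.74 on chromosome XV in its disome) lie below ORFs (1.87 to 1.90). On chromosomes I to XIV, which were not doubled, they also lie below ORFs in this disome (0.891 to 0.925 and 0.986 to 0.994).

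In the chromosome XV disome 252 of 797 ST transcripts (31.6%) differed from F45 at an adjusted p under 0.01 (edgeR quasi-likelihood test with Benjamini-Hochberg adjustment over all 8249 features, dose adjusted to 2 copies on the doubled chromosome), compared with 50.6% of all features. Of these 112 were higher (22.8% of all features were) and 140 lower (27.9%). The median log2 fold change over all ST transcripts was 0.02, and that over all features was -0.04.

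The largest increase was that of ST2421, which starts at position 23944 of chromosome XIII, 261 bases from the divergent α-tubulin gene *TUB3*, and covers 1764 bases opposite *PHO84*, the gene for the high affinity phosphate transporter. It had 1.74, 1.21, 1.54 and 2.07 CPM in F45 libraries 1 to 4 and 13.7, 16.8, 13.4 and 12.7 CPM in the disome. The 2 groups did not overlap, as the rule for naming transcripts required, and the log2 fold change was 3.14 (SE 0.17, edgeR adjusted p = 9.9e-15). *PHO84* itself went the other way, from a mean of 2832 CPM to 168 CPM, with a log2 fold change of -4.08 (SE 0.16, edgeR adjusted p = 3.61e-18). Per kb, ST2421 was 0.0898% to 0.154% of *PHO84* in F45 libraries and 13.7% to 25.8% in the disome libraries. *TUB3* fell by 0.22 on the log2 scale (127 and 109 CPM). Because 62.2% of the bases of ST2421 were shared with other features of its strand, its counts come from the rest of its length.

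Other increases lay near genes that differed little or rose as well. ST5252, opposite the formin gene *BNR1* on chromosome IX, was 0.580, 0.403, 0.587 and 0.964 CPM in F45 and 4.20, 2.42, 3.90 and 3.73 CPM in the disome (log2 2.56, SE 0.28, edgeR adjusted p = 8.19e-09), while *BNR1* was 12.3 and 12.5 CPM. ST4116, of 161 bases, starts 223 bases after the ribosomal protein gene *RPS29B* on the same strand, and was at most 0.725 CPM in F45 and at least 1.13 CPM in the disome (log2 2.33, SE 0.45, edgeR adjusted p = 6.3e-05). *RPS29B* rose with it, from 363 to 826 CPM.

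The largest decreases were of ST transcripts opposite genes. ST4587, opposite *MOT2* (a ubiquitin ligase of the Ccr4-Not complex) on chromosome V, was 1.74, 2.34, 1.32 and 1.79 CPM in F45 and 0, 0.134, 0 and 0.118 CPM in the disome. These values come from 72 counts in F45 and 3 in the disome, a ratio of 23.4 after library size (95% exact interval 7.71 to 116, counting error only). In the other groups of the first batch ST4587 was 0.534 CPM or more in every library, although it was lower in the empty plasmid control than in F45 (log2 -0.98, SE 0.28, edgeR adjusted p = 0.00481), and *MOT2* was 47.2 CPM in F45 and 58.8 CPM in the disome. ST2958, which lies wholly opposite the transporter gene *HOL1*, fell from 9.31 to 11.4 CPM in F45 to 0.344 to 1.94 CPM (log2 -3.78, SE 0.29, edgeR adjusted p = 1.12e-11), with *HOL1* at 127 and 129 CPM. ST5469 lies opposite *SIP4*, an activator gene of gluconeogenesis, and was 7.25, 8.94, 6.45 and 5.65 CPM in F45 and 0.484, 0.805, 0.344 and 0.828 CPM in the disome (log2 -3.42, SE 0.24, edgeR adjusted p = 1.12e-12). Unlike *MOT2* and *HOL1*, *SIP4* fell as well, from 177 to 51.1 CPM.

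In the chromosome XVI disome 199 of 797 ST transcripts (25%) differed from F45, against 45.2% of all features. Of these 64 were higher (21.3% of all features) and 135 lower (24%), so that calls among ST transcripts were mostly decreases. Without the dose adjustment the split was 46.4% higher, as against 32.2% with it, since 101 of the tested ST transcripts lie on the doubled chromosome. The median log2 fold change was -0.09 over ST transcripts and -0.02 over all features.

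Among the decreases was that of ST2976 on chromosome XV (31666 to 33258, plus strand), which starts 60 bases from the divergent gene *HPF1*, a cell wall mannoprotein gene. It had 67.9, 79.6, 71.6 and 68.7 CPM in F45 libraries 1 to 4 and 12.2, 9.55, 11.1 and 9.26 CPM in the chromosome XVI disome, a log2 fold change of -2.76 (SE 0.09, edgeR adjusted p = 1.92e-19). *HPF1* rose from 97.7 to 952 CPM (log2 3.28, SE 0.16, edgeR adjusted p = 5.1e-16), and *ZPS1*, 1400 bases beyond the other end of ST2976, from 370 to 902 CPM. ST2976 was also 26.0, 22.7, 22.9 and 21.1 CPM in the chromosome XV disome, where it lies on the doubled chromosome (log2 -2.65 after dose adjustment, SE 0.09, edgeR adjusted p = 1.2e-19), 18.3 to 25.1 CPM in the hemizygous strain and 15.4 to 19.1 CPM in the *DIG1* overexpression strain, and 61.9 to 68.7 CPM in the empty plasmid control. In the second batch it was 101 to 102 CPM in F45, 85.6 to 104 CPM in *cis3*Δ and 69.9 to 102 CPM in *flo11*Δ. It was therefore high in F45 and the empty plasmid control and low in the other 4 groups of the first batch, with no overlap between these sets of libraries. The neighbours did not always move with it. In *flo11*Δ *HPF1* was 1117 CPM against 49.8 CPM in F45 (log2 4.49, SE 0.27, edgeR adjusted p = 3.33e-07), while ST2976 was not called (log2 -0.34, SE 0.11, edgeR adjusted p = 0.0261). *ZPS1* was 1923 CPM in the empty plasmid control, above its 370 CPM in F45, with ST2976 not called there either (log2 -0.12, SE 0.08, edgeR adjusted p = 0.19).

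Neighbouring transcripts fell together at one place on the doubled chromosome. ST7239 (chromosome XVI, 833483 to 834075, minus strand) and ST7240 (834075 to 834307, minus strand), which ends where ST7239 begins, are opposite *MAY24*. ST7239 was 7.11, 7.09, 8.29 and 7.16 CPM in F45 and 1.57, 1.74, 1.96 and 1.64 CPM in the disome, a log2 fold change of -3.07 after dose adjustment (SE 0.21, edgeR adjusted p = 8.71e-13). ST7240 fell by 3.0 on the log2 scale (SE 0.37, edgeR adjusted p = 1.16e-07). Both remained lower than F45 without the adjustment, as their raw levels show. *MAY24* was 10.8 and 14.0 CPM, and *PIN3*, divergent from both, 262 and 215 CPM.

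Increases in the chromosome XVI disome were smaller. ST5619, which is 1021 bases from the divergent lactate permease gene *JEN1*, was 0.290, 1.53, 0.880 and 1.51 CPM in F45 and 4.54, 4.63, 4.95 and 3.88 CPM in the disome (log2 2.06, SE 0.25, edgeR adjusted p = 7.29e-08), while *JEN1* fell from 4398 to 1475 CPM. ST4630 (log2 1.80, SE 0.32) lies between the protein phosphatase gene *GLC7* and *PMD1*, and ST2954 (log2 1.76, SE 0.34) ends 74 bases from the convergent gene *BRE5*. The libraries of the 2 groups did not overlap for any of the 3, as the rule for naming transcripts required.

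Compared with each other, the disomes differed at 211 ST transcripts (26.5%, against 38.5% of all features), 112 higher in the chromosome XV disome (19.1% of all features) and 99 lower (19.4%). The median log2 difference was 0.12 over ST transcripts and 0.00 over all features. ST7196, opposite *MDM36* on chromosome XVI, was 7.59, 6.58, 6.88 and 4.97 CPM in the chromosome XV disome and 1.30, 1.16, 1.75 and 1.04 CPM in the chromosome XVI disome, which carries a further copy of it (log2 3.17 after dose adjustment, SE 0.19, edgeR adjusted p = 1.78e-13). ST5120, which starts 214 bases after the argininosuccinate lyase gene *ARG4* on the same strand, was 0.162, 0.403, 0.229 and 0.177 CPM and 2.32, 4.92, 4.38 and 6.27 CPM in these strains (log2 -4.19, SE 0.34, edgeR adjusted p = 4.35e-11). *ARG4* differed in the same direction, at 68.0 and 525 CPM. ST5120 also lies wholly opposite *YSC83*, whose levels are not given here. ST4587, already described, had 3 counts in the chromosome XV disome and 127 in the chromosome XVI disome, a ratio of 32.8 (95% exact interval 11 to 161). ST5696, between the cell wall protein genes *CWP1* and *CWP2*, was at least 6.44 CPM in the chromosome XV disome and at most 1.52 CPM in the other (log2 2.44, SE 0.28, edgeR adjusted p = 3.08e-08). 84.7% of its bases were shared with other features. *CWP1* (1777 and 404 CPM) and *CWP2* (7621 and 3857 CPM) differed the same way.

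**Figure D3:**
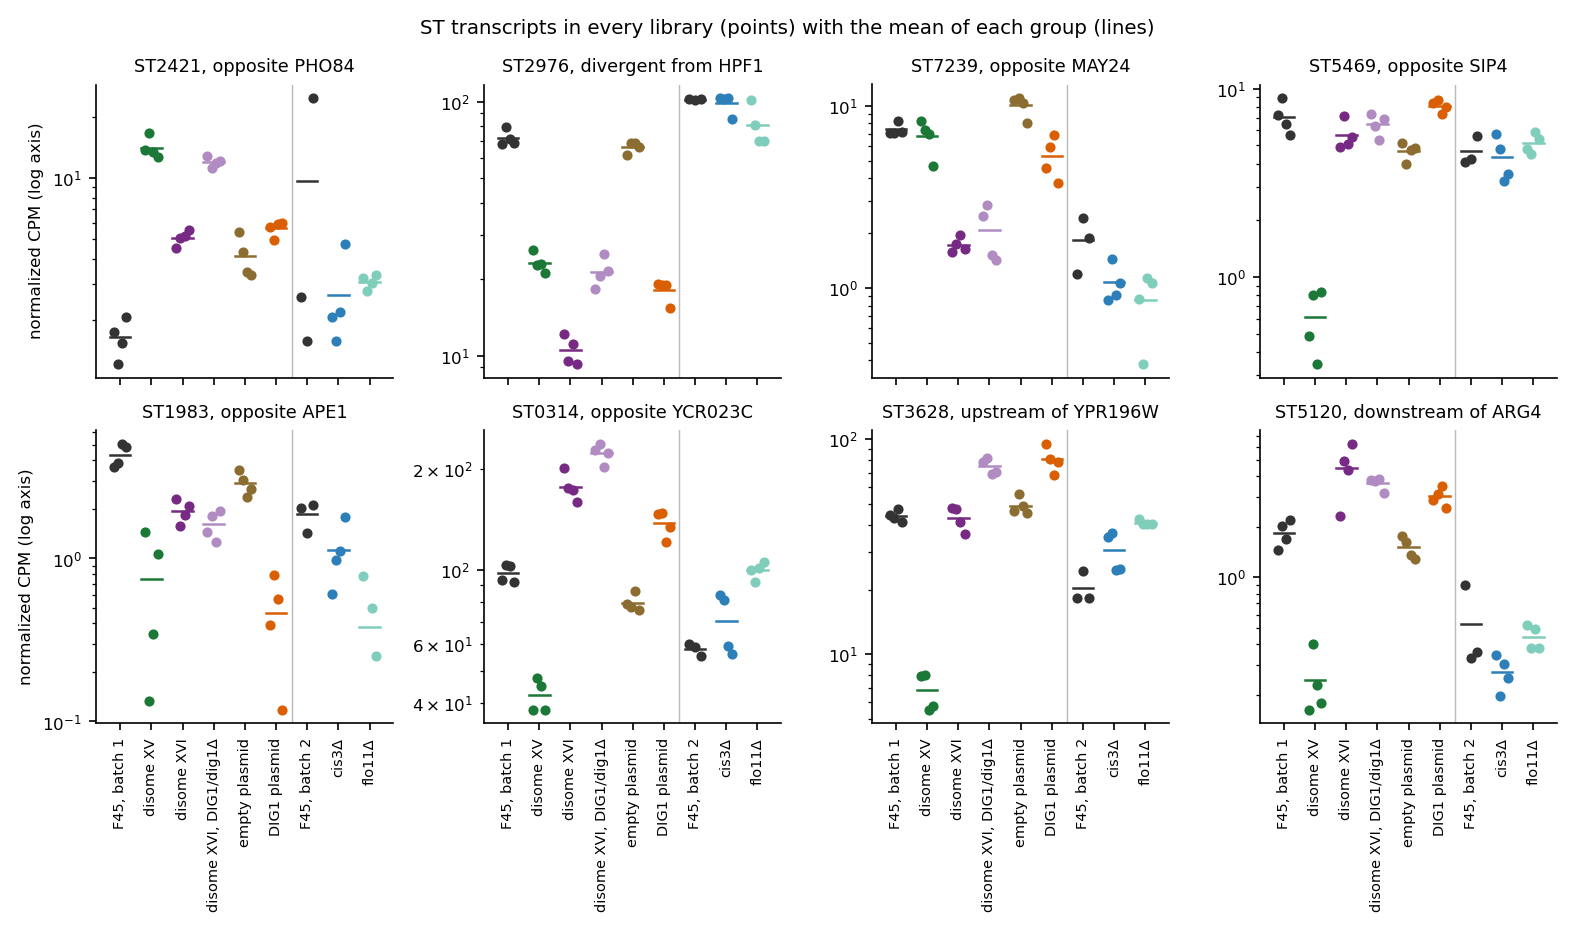
Normalized CPM (log axis) of 8 ST transcripts in every library (points) with the mean of each group (lines) in the 9 groups, the second batch right of the grey line. ST2421 is 12.7 to 16.8 CPM in the chromosome XV disome and 1.21 to 2.07 CPM in F45, and the single library at 0, *flo11*Δ library 2 for ST1983, cannot be drawn on the log axis.

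Removal of one of the *DIG1* copies of the chromosome XVI disome was accompanied by few calls among ST transcripts, most of which had low levels (shares by level are given below). The hemizygous strain differed from the disome at 34 of 797 (4.27%, against 19.7% of all features), with 21 higher (9.54% of all features) and 13 lower (10.2%). The count fell to 20 without hemizygous library 2 (18 higher and 2 lower) or disome library 4 (14 and 6) and to 22 without library 1 of the hemizygous strain (16 and 6) or of the disome (18 and 4). ST2421 was again among the largest increases, from 4.54, 5.06, 5.20 and 5.52 CPM to 12.8, 11.2, 11.9 and 12.1 CPM (log2 1.24, SE 0.14, edgeR adjusted p = 3.27e-07). *PHO84* went from 976 to 250 CPM. ST3110, of 81 bases and 217 bases after the glyoxalase gene *GLO4*, was 1.95, 1.88, 2.83 and 2.39 CPM in the disome and 6.18, 5.33, 4.72 and 6.93 CPM in the hemizygous strain (log2 1.29, SE 0.26, edgeR adjusted p = 0.000406), with *GLO4* at 75.9 and 75.6 CPM. ST2976 also rose, by 1.02 on the log2 scale (SE 0.11).

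The decreases in this comparison, and 1 increase, were close to the threshold. ST4938, opposite *DRN1*, was 0.299 to 1.02 CPM in the disome and 0 to 0.253 CPM in the hemizygous strain (log2 -2.28, SE 0.60, edgeR adjusted p = 0.0045). ST0140, opposite the repressor gene *NRG2*, was 1.02, 1.01, 0.773 and 1.79 CPM and 0.562, 0.390, 0.253 and 0.533 CPM (log2 -1.31, SE 0.38, edgeR adjusted p = 0.00866). ST0289, opposite the microtubule gene *BIK1*, had a log2 fold change of -0.93 (SE 0.24, edgeR adjusted p = 0.00393), and ST5696 one of 1.21 (SE 0.33, edgeR adjusted p = 0.00642). Each of these 4 calls was lost without some single library, with an adjusted p of 0.01 to 0.0619. These were hemizygous library 1, 2 or 4 or disome library 2 for ST4938, any library but disome library 3 for ST0140, hemizygous library 1, 2 or 3 or disome library 1 or 4 for ST0289, and hemizygous library 2 or 3 or disome library 1, 3 or 4 for ST5696.

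Relative to F45, the hemizygous strain had 186 ST transcripts called (23.3%, against 49.1% of all features), 53 higher (22.4%) and 133 lower (26.7%). ST2421 (log2 2.92, SE 0.18), ST5619 (log2 2.00, SE 0.26) and ST3110 (log2 1.83, SE 0.29) had the largest increases. ST5938, opposite the exonuclease gene *REX3*, had 3 counts in the hemizygous libraries and 33 in F45, a ratio of 9.32 (95% exact interval 2.92 to 47.5). ST2958 (log2 -2.91, SE 0.27) and ST7239 (log2 -2.85, SE 0.22) were the other large decreases. This comparison and those of the disomes share the F45 libraries.

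In the *DIG1* overexpression strain 77 of 797 ST transcripts differed from the empty plasmid control (9.66%, against 27.4% of all features). Of these 22 were higher (12.4% of all features) and 55 lower (15%). The median log2 fold change was -0.14 over ST transcripts and -0.05 over all features. Of the 55 that fell 5 had the Ste12 motif in the 300 bases before the start (9.09%), and of the 22 that rose 0 had it, beside 6.65% of all ST transcripts tested.

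The largest increase was at *DIG1* itself. ST3473 lies 35 bases beyond the 3′ end of the *DIG1* reading frame on the opposite strand, and was 0.471, 0.440, 0.194 and 0.257 CPM in the empty plasmid control and 1.65, 1.58, 1.55 and 0.587 CPM in the overexpression strain (log2 1.93, SE 0.35, edgeR adjusted p = 6.07e-05). *DIG1* rose by 2.09 on the log2 scale (SE 0.06). In the chromosome XVI disome ST3473 was 1.39, 0.868, 0.618 and 0.597 CPM, and in the hemizygous strain 0.225, 0.520, 0.506 and 0.178 CPM, a difference that did not pass the threshold (log2 -1.13, SE 0.44, edgeR adjusted p = 0.0534). Whether the *DIG1* fragment on the plasmid contains ST3473 is not given in the sources used here. ST3474, 143 bases from the other end of *DIG1*, differed by 0.06 on the log2 scale in the overexpression strain (edgeR adjusted p = 0.905). ST4587 (log2 1.29, SE 0.27) and ST4971 (log2 1.27, SE 0.31), opposite *SKN1*, were the next largest increases, the latter not called without overexpression library 2 (adjusted p = 0.0118).

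The largest decreases were of ST4888, ST1682 and ST1983. ST4888, opposite the splicing factor gene *SNU71*, was 2.54, 1.82, 3.40 and 2.31 CPM in the empty plasmid control and 0.548, 0.113, 0.141 and 0.235 CPM in the overexpression strain (log2 -3.07, SE 0.40, edgeR adjusted p = 6.13e-07). *SNU71* was 34.5 and 34.1 CPM, whereas *MSB2*, a signalling mucin gene of the filamentous growth pathway 1044 bases away in the divergent direction, fell from 396 to 162 CPM. ST1682, which lies opposite *FLO11* for 3497 of its 3825 bases, was 3.02, 1.63, 2.57 and 5.18 CPM and 0.470, 0.451, 0.282 and 0.352 CPM (log2 -2.93, SE 0.50, edgeR adjusted p = 2.83e-05), and *FLO11* fell from 22570 to 2423 CPM. Per kb, ST1682 was 0.0077% to 0.0261% of *FLO11* in the empty plasmid control and 0.0126% to 0.0212% in the overexpression strain, ranges that overlap. ST1983, opposite the vacuolar aminopeptidase gene *APE1*, was 3.49, 3.02, 2.38 and 2.67 CPM and 0.392, 0.789, 0.565 and 0.117 CPM (log2 -2.65, SE 0.34, edgeR adjusted p = 4.58e-07), with *APE1* at 83.8 and 44.4 CPM. For all 3 the groups did not overlap, which was a condition of their being named.

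The effect of added *DIG1* in the euploid (overexpression strain against the empty plasmid control) was tested against its effect in the disome (chromosome XVI disome against the hemizygous strain). The step in *DIG1* level was larger in the euploid, and the contrast did not scale for it. The size of this step and the karyotype were therefore not separated. The 2 effects differed at 32 ST transcripts (4.02%, against 11.5% of all features), 9 with a higher effect in the euploid (4.51% of all features) and 23 with a lower one (6.95%). Without hemizygous library 3 the count was 20, with 8 higher and 12 lower. The effect on ST2421 was 1.66 higher on the log2 scale in the euploid (SE 0.20, edgeR adjusted p = 8.36e-07), the effect on ST3628 1.51 higher (SE 0.13, edgeR adjusted p = 4.96e-09) and that on ST0314 1.12 higher (SE 0.11, edgeR adjusted p = 1.5e-08). ST3628 was 46.4, 55.3, 49.0 and 45.5 CPM in the empty plasmid control and 95.3, 81.2, 67.9 and 78.3 CPM in the overexpression strain, but 78.5, 82.0, 69.0 and 70.2 CPM in the hemizygous strain and 48.0, 47.3, 41.4 and 36.1 CPM in the chromosome XVI disome. It was thus higher with added *DIG1* in the euploid and lower with it in the disome. ST1983 (log2 -2.95, SE 0.47), ST2511 (log2 -2.39, SE 0.54) and ST5938 (log2 -4.12, SE 1.05) had the largest lower effects, and in ST5938 no library of these groups exceeded 1.39 CPM. The call of ST5938 was lost without hemizygous library 1 or 3, overexpression library 1, 2 or 4 or disome library 3 (log2 -4.08 to -3.37, adjusted p of 0.0109 to 0.0713).

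Carrying the empty plasmid was itself accompanied by differences from F45, at 104 ST transcripts (13%, against 38.9% of all features). 41 were higher (19% of all features) and 63 lower (19.9%), and the median log2 fold change was 0.01. ST6973, opposite the spindle positioning gene *KAR9*, was 6.09, 5.07, 5.13 and 7.16 CPM in F45 and 1.41, 1.13, 0.776 and 1.13 CPM in the control (log2 -2.32, SE 0.18, edgeR adjusted p = 6.67e-11). *KAR9* was 10.1 and 15.1 CPM. ST6973 was also at most 3.11 CPM in every library of the disomes, the hemizygous strain and the overexpression strain. ST2958 (log2 -1.86, SE 0.20) and ST6184 (log2 -1.85, SE 0.23), opposite the plasma membrane protein gene *SUR7*, were the next largest decreases. ST7076 rose from 0.145 to 0.322 CPM in F45 to 1.07 to 1.41 CPM (log2 2.31, SE 0.44, edgeR adjusted p = 8.21e-05), 72 bases after the chaperone gene *SSE1*. ST2511, 210 bases after the glucose transporter gene *HXT2* (log2 2.14, SE 0.32), and ST4702, opposite *LOC1* (log2 1.80, SE 0.43), rose as well.

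In the second batch no ST transcript of 502 differed between *cis3*Δ and F45 by the edgeR quasi-likelihood test, where 0.361% of all 7485 features did. At an unadjusted p under 0.05, 72 did, and DESeq2 called 5 at the same adjusted threshold. The shares of all features at these settings are not given here, so neither count sets ST transcripts apart. The median log2 fold change over ST transcripts was 0.01. The *cis3*Δ libraries were not alike for some members. ST6969 was 167 and 160 CPM in libraries 1 and 2, from one strain, and 99.7 and 84.3 CPM in libraries 3 and 4, from the other.

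In *flo11*Δ 62 of 502 ST transcripts differed from F45 (12.4%, against 27.8% of all features), 32 higher (13.6%) and 30 lower (14.2%). Without F45 library 3 the count was 46, with 24 higher and 22 lower, without F45 library 1 it was 74 (22 and 52) and without F45 library 2 it was 42 (21 and 21). ST6969 had a large and well measured increase, with 104, 92.8 and 111 CPM in F45 and 318, 280, 267 and 247 CPM in *flo11*Δ (log2 1.44, SE 0.20, edgeR adjusted p = 0.000102). *FIT3*, 58 bases downstream, was 388 and 507 CPM and *FRE5*, opposite, 5.30 and 5.33 CPM. ST5373, 39 bases before the glutathione transferase gene *GTT1*, was 2.30, 3.22 and 2.88 CPM in F45 and 8.39, 7.72, 6.57 and 6.72 CPM in *flo11*Δ (log2 1.38, SE 0.20, edgeR adjusted p = 0.000124). ST3512 on chromosome XVI rose by 1.46 on the log2 scale (SE 0.35, edgeR adjusted p = 0.0043), a call that was lost without *flo11*Δ library 3 or 4 or without any single F45 library (adjusted p of 0.0105 to 0.0173).

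The decreases in *flo11*Δ rested on fewer reads and partly on 1 library. ST1682, most of which lies opposite the deleted reading frame, was 3.50, 1.61 and 178 CPM in F45 and 0.0865, 0.381, 0.0707 and 0.0628 CPM in *flo11*Δ. F45 library 3 alone was at 178 CPM, while *FLO11* itself was 20370, 18290 and 18650 CPM in the 3 libraries. The log2 fold change was -8.75 (SE 2.13, edgeR adjusted p = 0.00485), and without F45 library 3 it was -4.15 (adjusted p = 0.0666). The calls of ST1682 and ST1356 were also lost without any single *flo11*Δ library, at log2 fold changes from -9.60 to -2.31. ST1356, opposite *SPG1*, was 2.35, 2.60 and 19.2 CPM in F45 and 0.762 to 1.91 CPM in *flo11*Δ (log2 -2.49, SE 0.66, edgeR adjusted p = 0.00824), and without library 3 the log2 fold change was -0.79 (adjusted p = 0.103). ST1983 did not depend on library 3 in its level, with 2.05, 1.44 and 2.11 CPM in F45 and 0.778, 0, 0.495 and 0.251 CPM in *flo11*Δ (log2 -2.26, SE 0.49, edgeR adjusted p = 0.00246), and its call was lost without *flo11*Δ library 4 (adjusted p = 0.0115). ST2421 had 2.60, 1.57 and 24.9 CPM in F45 of this batch, the third library again standing apart, and 3.20, 2.76, 3.04 and 3.33 CPM in *flo11*Δ. These *flo11*Δ levels were above those of F45 libraries 1 and 2 and below that of library 3, so no fold change is given.

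The place of an ST transcript relative to its neighbour went with how far the pair moved together, though not to the same degree in every comparison. In the chromosome XV disome relative to F45, ST transcripts with a same-strand ORF ending within 300 bases upstream had log2 fold changes correlated with those of that ORF (n = 143 pairs, Pearson's r = 0.433, Spearman's rho = 0.428). Of the 26 pairs in which both members were called, 24 moved in the same direction. ST transcripts opposite an ORF had almost no correlation (n = 461, r = 0.047, rho = 0.072), and of 99 pairs with both called 49 moved in the same direction and 50 in opposite directions, so that ST2421 and *PHO84* stand for one kind of pair and ST5469 and *SIP4* for the other. Divergent pairs within 300 bases lay between (n = 205, r = 0.117, rho = 0.271), with 22 of 32 in the same direction. Pairs with the same-strand ORF downstream had little correlation (n = 212, r = 0.042, rho = 0.047), with 20 of 36 in the same direction. These are correlations across genes within one comparison, the points share libraries and some share ORFs, and reads running past the end of an ORF would be counted to a tandem ST transcript. That possibility was not tested.

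Over the 8 comparisons of the first batch, which share libraries, Pearson's r ranged from 0.149 to 0.433 for tandem pairs with the ORF upstream, from 0.094 to 0.195 for divergent pairs, from -0.047 to 0.084 for antisense pairs and from 0.006 to 0.25 for tandem pairs with the ORF downstream. Tandem pairs with the ORF upstream had the highest r of the 4 relations in each of these comparisons except 2. These were the hemizygous strain against the chromosome XVI disome, where r was 0.211 with the ORF upstream and 0.25 with it downstream, and that of the *DIG1* effects in euploid and disome, where r was 0.149 for tandem pairs with the ORF upstream and 0.195 for divergent pairs. Among tandem pairs with the ORF upstream and both members called, all 8 moved in the same direction for *DIG1* overexpression. The counts against F45 were 14 of 17 (chromosome XVI disome), 16 of 21 (hemizygous strain) and 10 of 13 (empty plasmid). Between the disomes they were 12 of 18, and for the hemizygous strain against the chromosome XVI disome 0 of 1. Divergent pairs, in the same order, had 5 of 6, 25 of 30, 23 of 29, 12 of 15, 16 of 22 and 1 of 3. For the chromosome XVI disome against F45, rho was 0.356 over all these tandem pairs and 0.349 over divergent pairs. In *flo11*Δ the antisense pairs had an r of 0.538 but a rho of -0.012, and without ST1682 and *FLO11* the r was -0.004 (n = 253), so that this 1 pair gave the correlation.

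**Figure D4:**
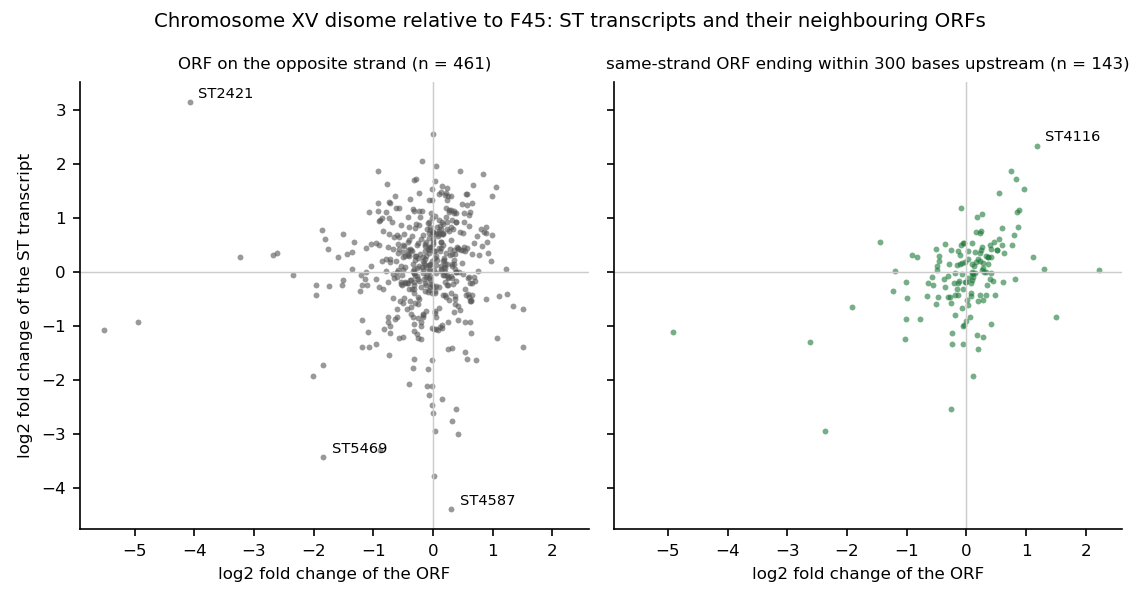
Log2 fold change of ST transcripts (y axis) against that of the neighbouring ORF (x axis) in the chromosome XV disome relative to F45, for ORFs on the opposite strand (left, n = 461) and same-strand ORFs ending within 300 bases upstream (right, n = 143), each point a pair. The right cloud is tilted (r = 0.433) and the left is not (r = 0.047).

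ST transcripts were called less often than other features in every comparison. Of the ST transcripts tested in the first batch 542 had a mean under 3 CPM, 177 a mean of 3 to 10 CPM, 68 of 10 to 30 CPM and 10 of at least 30 CPM. For the chromosome XV disome against F45 the shares called in these classes were 24.4%, 41.8%, 58.8% and 60.0% for ST transcripts and 21.2%, 49.0%, 50.7% and 61.5% for ORFs. For the chromosome XVI disome they were 16.1%, 35.6%, 60.3% and 80.0% for ST transcripts and 20.7%, 39.1%, 44.7% and 55.9% for ORFs. In *DIG1* overexpression ST transcripts were below ORFs in the first 3 classes, at 6.83%, 13.0% and 14.7% against 11.2%, 23.3% and 27.1%. In the fourth class, with 10 ST transcripts, they were above, at 70.0% against 35.3%. For the empty plasmid control against F45 ST transcripts were below ORFs in all 4 classes, at 7.01%, 22%, 32.4% and 50% against 10.6%, 29.2%, 41.5% and 52.8%. The hemizygous strain against the chromosome XVI disome gave 1.11%, 6.78%, 14.7% and 60.0% for ST transcripts. The ORFs of this comparison were at 1.96%, 9.09%, 12.2% and 30.6%. In *flo11*Δ the shares in the 4 classes were 4.81%, 16.2%, 30.4% and 37.5% for ST transcripts and 9.92%, 23.2%, 27.3% and 36.1% for ORFs. No test of these differences between kinds of feature was made.

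**Figure D5:**
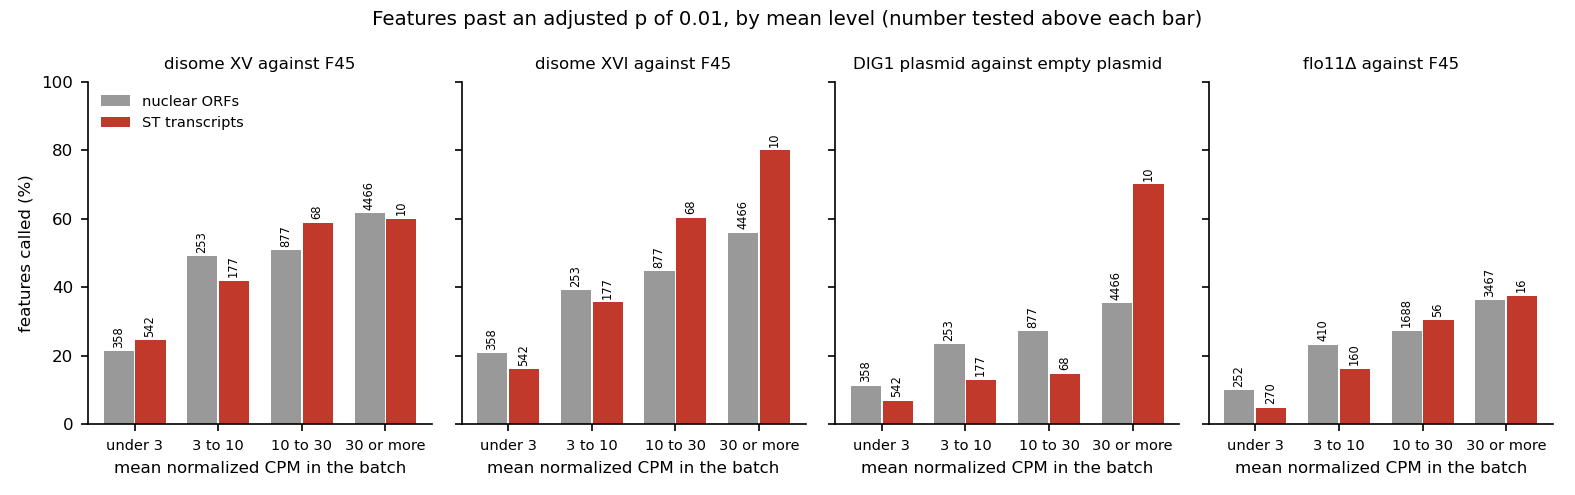
Percentage of ST transcripts and nuclear ORFs past an adjusted p of 0.01 by class of mean level (number tested above each bar) in 4 comparisons. In the disomes the bars of ST transcripts rise with level much as those of ORFs do (24.4% to 60.0% and 21.2% to 61.5% in the chromosome XV disome).

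The genes of RNA surveillance, a list of 29 chosen for their role in the decay of such transcripts, were counted in the same way, with values in the disomes and the hemizygous strain given after dose adjustment. In the chromosome XV disome 14 were higher (22.8% of all features were) and 2 lower (27.9%), with a median log2 of 0.19 against -0.04 over all features. They included the exosome cofactor gene *LRP1* (log2 0.92, SE 0.07, edgeR adjusted p = 1.72e-11) and, on the doubled chromosome, the TRAMP poly(A) polymerase gene *PAP2* (log2 0.90, SE 0.08, edgeR adjusted p = 1.83e-10). *NRD1* was higher as well (log2 0.57, SE 0.11, edgeR adjusted p = 3.69e-05), while the helicase gene *SEN1* fell (log2 -0.22, SE 0.07). The other lower call was the exonuclease gene *RAT1* on the doubled chromosome, at -0.29 after dose adjustment. In the chromosome XVI disome 10 were higher (21.3% of all features) and 1 lower (24%), with a median of 0.15. *AIR1* of TRAMP had a log2 fold change of 0.80 (SE 0.10), and *NAB3*, on the doubled chromosome, one of -0.42 after dose adjustment (SE 0.09, edgeR adjusted p = 0.000245). *RRP6* did not pass the threshold against F45 in either disome after dose adjustment, with log2 values of -0.04 and 0.15, and its level was 91.1 CPM in F45, 177 CPM in the chromosome XV disome, which carries a second copy of it, and 101 CPM in the chromosome XVI disome. Against F45, the empty plasmid control had 12 higher and 2 lower (19% and 19.9% of all features) and the hemizygous strain 10 and 3 (22.4% and 26.7%). The hemizygous strain had 1 higher and 5 lower than the chromosome XVI disome (9.54% and 10.2%). With *DIG1* overexpression 6 rose and 1 fell (12.4% and 15%), in *flo11*Δ 2 rose and 7 fell (13.6% and 14.2%) and in *cis3*Δ 0 passed. Among ORFs alone, the shares higher and lower than F45 were 27.8% and 29.2% (chromosome XV disome) and 26.6% and 24.9% (chromosome XVI disome). They were 24.2% and 23.4% for the empty plasmid control and 28.4% and 29.2% for the hemizygous strain. With *DIG1* overexpression the ORF shares were 15.8% and 16.3%. Summed over all ids, ST transcripts took 2866 to 3998 normalized CPM in the 35 libraries, and its relation to these genes was not tested.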

How the data were processed

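The unit of every value was a count per annotated feature, deposited by the authors as 1 table per batch. Per the submitters' processing notes and the study's methods, read pairs were aligned to R64, extended with noncoding RNAs and genes of F45, with Bowtie2 2.1.0 and counted by strand with featureCounts 1.4.0. Columns name strains, which were matched to groups through the study's strain list. The coordinates in the files were compared with R64, in which 5868 of 5900 matched ORFs had the same start and end.

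Counts were normalized by TMM on nuclear ORFs, leaving out those of the 2 doubled chromosomes for the first batch, and each batch was fitted separately with edgeR 4.0.16 (limma 3.58.1, R 4.3.3). The design held group only, with an offset for 2 copies of a doubled chromosome. Features with at least 1 normalized CPM in at least 3 libraries were tested (8249 and 7485) by the two-sided quasi-likelihood test, adjusted by Benjamini-Hochberg over all of them and called under 0.01. Fold changes are log2 from edgeR with a prior count of 0.125. Intervals cover counting error only, as reads are not independent molecules.

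Named ST transcripts were the 3 largest increases and 3 largest decreases per comparison among those called without overlap between groups (no overlap rule for the difference of *DIG1* effects), the 5 highest in F45 and the 3 highest on chromosomes XV and XVI, with their neighbouring ORFs. Some others are named for a stated reason. The members and lists were chosen with earlier results of these data known. Alternatives were DESeq2 1.42.0, a likelihood ratio test, other normalizations and filters, no dose adjustment, a replicate block and leaving out each library. The edgeR script was tested on simulated data.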

Additional observations from a re-analysis of the deposited data

Results flagged for a closer look

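For levels of named ST transcripts, dosage medians and summed ST levels, 120 groups of 4 libraries were examined. In 4 of them the highest or lowest library lay farther from the others than Dixon's 95% limit, and chance gives about 1 in 20. They were ST7239 in F45 of the first batch, where a library was at 8.29 CPM and the others at 7.09 to 7.16, and ST3473 in the *DIG1* overexpression strain, with a library at 0.587 CPM and the others at 1.55 to 1.65. ST1682 in *flo11*Δ had a library at 0.381 CPM and the others at 0.0628 to 0.0865, and ST5938 in the chromosome XVI disome had one at 0.464 CPM and the others at 0.145 to 0.185.

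The effect of added *DIG1* differed between the euploid and the chromosome XVI disome, by the test of the difference itself (edgeR), for 6 named ST transcripts. It was higher in the euploid by 1.66 on the log2 scale for ST2421, by 1.51 for ST3628 and by 1.12 for ST0314. The differences were -4.12 for ST5938, -2.95 for ST1983 and -2.39 for ST2511. The step in *DIG1* level was larger in the euploid, and the test did not scale for it.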

How the results depend on the processing

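Of 952 alternative values for the 54 named results, 902 kept their direction and call, 50 kept the direction and lost the call and 0 reversed. 44 of the 54 passed under every alternative run, and those that did not were ST0140, ST0289, ST5696 and ST4938 (hemizygous strain against the chromosome XVI disome), ST5938 (difference of *DIG1* effects), ST4971 (overexpression) and ST3512, ST1356, ST1682 and ST1983 (*flo11*Δ).

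Restricted to ST transcripts that share no base with another feature, which are fewer by construction, the counts were 161 (chromosome XV disome against F45), 125 (chromosome XVI disome), 126 (between the disomes), 19 (hemizygous against chromosome XVI disome), 117 (hemizygous against F45), 48 (overexpression), 66 (empty plasmid), 20 (difference of *DIG1* effects) and 40 (*flo11*Δ). In the same order, leaving out each library gave 200 to 252, 155 to 189, 169 to 198, 20 to 33, 154 to 180, 62 to 76, 79 to 100, 20 to 33 and 42 to 74. For *cis3*Δ it gave 0 to 2, the likelihood ratio test gave 1 and DESeq2 gave 5. The cause was not tested.

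Without the dose adjustment the counts were 273 (53.5% higher, against 44.4% with it) for the chromosome XV disome and 219 (44.7%, against 28.5%) for the hemizygous strain against F45. DESeq2 gave 39.3% higher for the difference of *DIG1* effects, against 28.1%.

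The dosage median of chromosome XV was 1.66 at 10 CPM or more in F45, 1.65 with TMM factors on total counts, 2.14 against the chromosome XVI disome, 1.93 with transcripts chosen over all 24 libraries (chosen after seeing the data) and 1.69 to 1.76 with each library left out. That of chromosome XVI was 2.01 against the chromosome XV disome, 1.95 over all 24 libraries and 1.63 to 1.81.

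Whether the numbers in the column names pair the libraries is not given by the labels, and the main design used no pairing. No comparison had every same-number correlation of deviations over 0.1. For the chromosome XV disome and F45 these were 0.088 to 0.111, above the -0.105 to 0.07 of other numbers, and 4 of 4 libraries were closest to their own number. In the other comparisons of the first batch 2 or 3 of 4 libraries were, in *cis3*Δ 2 of 3 and in *flo11*Δ 0 of 3. With a replicate block the counts were 248, 201, 211, 35, 191, 86, 104, 34 and 63 in the order above and 0 for *cis3*Δ, and ST5696 and ST0140 (hemizygous against chromosome XVI disome) did not pass, with edgeR adjusted p of 0.0104 and 0.0108. Most ST transcripts had under 3 CPM, where small differences are not detectable at this depth.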
